A study of Mus musculus with 6 samples.

Results

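The 10 genes described here write, copy or remove DNA methylation (*Dnmt1*, *Uhrf1*, *Dnmt3a*, *Dnmt3b*, *Tet1*, *Tet2* and *Tet3*) or form the enzyme and scaffold of Polycomb repressive complex 2, PRC2 (*Ezh1*, *Ezh2* and *Suz12*). They were taken by gene symbol from the deposited table, which holds 10 of 10 of them among 16244 genes, and all 10 were above the level needed for testing. The study compared Th17 cells from WT C57BL/6 mice with Th17 cells from knock-in mice on a C57BL/6 background that carry the N275D substitution in the ligand-binding domain of RORγt, the factor that defines the Th17 lineage. In both groups, splenic naive CD4+ T cells were stimulated through CD3 and CD28 and polarized under pathogenic Th17 conditions over 3 days, and each genotype gave 3 RNA-seq libraries. Levels are given as mean ± SD (n = 3 libraries per genotype) unless single libraries are listed. The design text names IL-6, IL-1β and IL-23 as the polarizing cytokines, and the study's methods add TGF-β and antibodies to IL-4 and IFN-γ. By the study's general methods the mice were young adults, and its replicates were biologically independent samples, mice or experiments. Whether the RNA-seq donors were homozygous for N275D, how many animals went into a library and whether the libraries came from separate mice or separate cultures are not given in the sources used here. The p-values measure the spread between these libraries.

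DNA methylation at cytosines followed by guanine is set by DNMT3A and DNMT3B and restored after each round of replication by DNMT1, which UHRF1 brings to hemimethylated DNA. The TET enzymes oxidize methylcytosine, in a reaction that needs oxygen, iron and 2-oxoglutarate, and so start its removal. PRC2 methylates histone H3 to mark silent genes, with EZH2 as the usual enzyme of dividing cells, EZH1 as the related enzyme found also in resting cells, and SUZ12 as the scaffold that holds the complex together. In helper T cells DNMT3A and EZH2 are known for fixing which cytokine genes stay silent. Loss of either allows helper subsets to express cytokines of other lineages.

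Between RORγtN275D and WT Th17 cells, the 3 DNA methyltransferase transcripts were lower and *Tet2* was higher. Within PRC2, *Ezh2* was lower and *Ezh1* higher. By limma on log2(normalized reads + 1), with p-values adjusted by the Benjamini-Hochberg method over the 11908 genes tested, 7 of the 10 genes passed an adjusted p of 0.05, 2 with a higher and 5 with a lower level in RORγtN275D cells. Of all genes tested, 50.9% passed, 24.7% as higher and 26.1% as lower. No member reached 2-fold, as 3.59% of all genes did, and the 10 log2 fold changes lay between -0.49 and 0.46 with a median of -0.14, where the median of all genes tested was -0.0026. The 3 libraries of one genotype lay wholly above those of the other for 8 members, and for 57.7% of all genes. An exact two-sided permutation test of 3 libraries against 3 cannot give a p below 0.1 for a single gene.

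**Figure D1:**
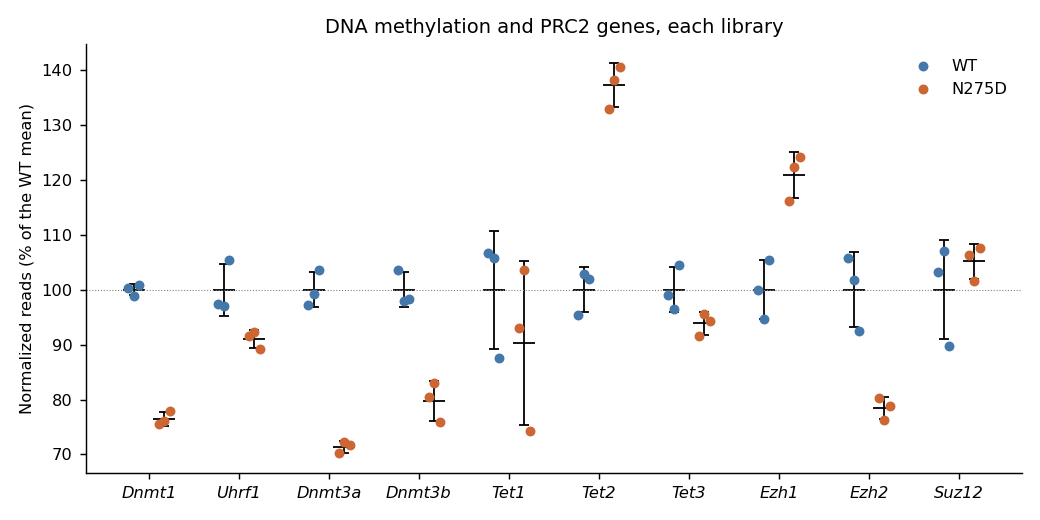
Normalized reads of each member in each library, as a percentage of the WT mean of that gene (dots, replicates 1 to 3 from left to right; bars, mean and SD of 3 libraries). The 3 DNA methyltransferases and *Ezh2* lie below WT and *Tet2* and *Ezh1* above it, whereas the libraries of *Tet1* and *Suz12* overlap between genotypes.

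Library depth was even, with 17659035 to 18510878 reads on genes per library, as computed from the step between the values of each library. WT replicate 3 stood farther from its group than any other library: its pairs with the other WT libraries differed by 2.95 and 3.02 times what counting gives, against 1.32 to 1.54 in the other 4 replicate pairs of the same genotype. Values without it are given below where they matter. All 7 T cell and all 6 Th17 markers passed the level for testing. Of the T cell markers 1 was higher (*Cd28*, 0.15) and 3 lower (lowest *Cd4*, -0.27), and 2 were higher without WT replicate 3. Of the Th17 markers 5 were higher, led by the IL-23 receptor gene *Il23r* (0.70), and 1 was lower. Markers of other cells were detected. The summed B cell markers went from between 1130 and 1168 normalized reads in WT to between 1722 and 1779 in mutant libraries. Of 6 tested, 5 were higher (most *Cd22*, 1.13), and *Ebf1* made up most of the sum. *Ms4a1*, too low for testing, had 0 to 1.01 in WT and 3.99 to 9.88 in mutant libraries, without overlap. For CD8 and natural killer markers the sums were 191.8 to 224.9 and 289.4 to 316.5, with 3 of 4 tested higher (most *Klrd1*). *Klrb1c*, too low for testing, had 0 to 2.02 in WT and 0 in mutant libraries. Myeloid sums overlapped (87.81 to 97.24 and 86.91 to 111.8, with *Adgre1*, at -1.70, the 1 of 2 tested that was lower). The part of these cells in the results was not tested, and in bulk RNA fewer cells of a type and less RNA per cell cannot be told apart.

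Because the study links RORγtN275D to HIF-1α, the letters upstream of the members' starts are shown with the core of the hypoxia response element and the core site of ROR receptors marked. RefSeq (GRCm38.p6, the build mm10 that the authors used) gives 15 starts for the 10 genes. Windows from 250 bases before to 50 after each start were searched on both strands for ACGTG (hypoxia response core), AGGTCA (ROR core site), TTCCCGC (an E2F site) and CCAAT (the CCAAT box). The 250 bases before the start are printed 5′ to 3′ along the gene for the genes with the largest increase and decrease and for the pair of PRC2 enzymes that moved in opposite directions, with matches to any of the 4 motifs in capitals:

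Tet2, minus strand, chr3:133544391-133544640: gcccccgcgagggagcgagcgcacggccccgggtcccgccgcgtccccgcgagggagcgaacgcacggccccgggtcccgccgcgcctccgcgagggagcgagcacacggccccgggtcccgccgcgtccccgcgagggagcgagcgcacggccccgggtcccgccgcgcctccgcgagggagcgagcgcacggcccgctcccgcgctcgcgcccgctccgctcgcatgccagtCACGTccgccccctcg

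Dnmt3a, plus strand, the internal start, chr12:3891494-3891743: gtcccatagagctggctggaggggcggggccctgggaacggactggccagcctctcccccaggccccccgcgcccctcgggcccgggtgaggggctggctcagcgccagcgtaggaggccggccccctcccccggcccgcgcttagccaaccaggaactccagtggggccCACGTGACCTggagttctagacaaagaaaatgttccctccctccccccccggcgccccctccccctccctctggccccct

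Ezh1, minus strand, chr11:101226464-101226713: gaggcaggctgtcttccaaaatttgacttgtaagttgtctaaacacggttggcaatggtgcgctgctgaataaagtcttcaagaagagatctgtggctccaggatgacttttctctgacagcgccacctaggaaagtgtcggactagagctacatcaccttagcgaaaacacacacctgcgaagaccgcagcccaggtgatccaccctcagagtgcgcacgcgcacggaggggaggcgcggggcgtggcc

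Ezh2, minus strand, chr6:47595031-47595280: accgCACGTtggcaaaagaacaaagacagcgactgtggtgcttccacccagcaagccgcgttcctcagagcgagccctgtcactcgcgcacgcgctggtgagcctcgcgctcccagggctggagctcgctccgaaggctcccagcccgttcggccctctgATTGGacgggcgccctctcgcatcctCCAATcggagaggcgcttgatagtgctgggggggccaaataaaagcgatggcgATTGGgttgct

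ACGTG lay in 4 of the 15 windows (26.7%), those of *Tet2*, *Ezh2*, the internal start of *Dnmt3a* and the downstream start of *Uhrf1*, and in 25.8% of the windows of all genes tested. At the internal start of *Dnmt3a* the hypoxia core is read on both strands as CACGTG and overlaps an AGGTCA on the minus strand. Of the *Dnmt3a* starts, only this internal one holds a match, and only this one is printed. The windows at the upstream *Dnmt3a* starts (chr12:3806730-3807029 and chr12:3806910-3807209) hold none of the 4 motifs. Which start the cells used was not tested. AGGTCA was found in 3 windows (20%, against 12.4% of windows of genes tested), those of *Dnmt3a*, *Uhrf1* and *Tet1*. TTCCCGC was in 2 windows (13.3%, against 8.25%), those of *Uhrf1* and *Suz12*. CCAAT was in 7 windows (46.7%, against 38.3%) of *Dnmt1*, *Uhrf1*, *Tet3*, *Ezh2* and *Suz12*. These matches are letters in a window and no measure of binding. Among the starts printed, the *Tet2* window holds 57 CpG dinucleotides, that of *Ezh2* 31, that of *Ezh1* 23 and that of *Dnmt3a* 18. The median window of a tested gene holds 20. Over the 15 windows the number ran from 2, at a *Dnmt1* start, to the 57 of *Tet2*.

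*Dnmt1* (GRCm38 chromosome 9, 20907206 to 20959888), the maintenance methyltransferase, had 10441, 10298 and 10491 normalized reads in the 3 WT libraries and 7860, 7918 and 8105 in the 3 mutant libraries. Every mutant library lay below every WT library, and the gap was larger than the spread within either genotype (means 10410 ± 100 and 7961 ± 128). The decrease was 23.5%, a log2 fold change of -0.39 (SE 0.03 from limma, adjusted p = 8.56e-08 by limma). *Uhrf1* (chromosome 17, 56303337 to 56323486), its recruiter, had 7094, 7064 and 7680 normalized reads in WT and 6670, 6715 and 6488 in RORγtN275D cells. The genotypes did not overlap, but the drop was only 9.0%, with a log2 fold change of -0.14 (SE 0.04, adjusted p = 0.00824 by limma). This call was lost under quantile normalization (log2 fold change -0.08, adjusted p = 0.069) and in limma without a trend (adjusted p = 0.0649). Per kilobase of exon, the ratio of *Uhrf1* to *Dnmt1* was 1.18 to 1.27 in WT and 1.39 to 1.47 in mutant libraries.

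*Dnmt3a* (chromosome 12, 3801559 to 3914443), which sets methylation anew, fell most of the 10 members. It had 3026, 3092 and 3223 normalized reads in WT and 2185, 2250 and 2233 in RORγtN275D cells. All mutant libraries were lower, by 28.6% on average (3114 ± 100 against 2223 ± 33.6), a log2 fold change of -0.49 (SE 0.04, adjusted p = 6.47e-08 by limma). *Dnmt3b* (chromosome 2, 153649411 to 153687730), the sister enzyme, was scarcer, with 281, 265 and 266 normalized reads in WT and 218, 225 and 205 in RORγtN275D cells. It also separated the genotypes, with a decrease of 20.2% (log2 fold change -0.33, SE 0.08, adjusted p = 0.00209 by limma). *Dnmt3l*, their inactive cofactor in germ cells, stayed at 0 or 1.01 normalized reads throughout. Summed per kilobase of exon, the 3 methyltransferases went from 1651 ± 17.1 in WT to 1255 ± 17 in RORγtN275D cells. *Dnmt1* kept 85.3% to 85.7% of that sum in WT and 85.7% to 86.3% in mutant libraries.

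*Tet2* (chromosome 3, 133463677 to 133545136), an oxidase of methylcytosine, showed the largest increase of the 10. It had 1922, 2072 and 2054 normalized reads in WT and 2680, 2787 and 2835 in RORγtN275D libraries. The lowest mutant library was well above the highest WT library (means 2016 ± 82.0 and 2768 ± 79.2), and the increase of 37.3% had a log2 fold change of 0.46 (SE 0.04, adjusted p = 3.16e-07 by limma). *Tet3* (chromosome 6, 83362373 to 83457208), another member of the family, had 2832, 2758 and 2988 normalized reads in WT and 2621, 2734 and 2697 in RORγtN275D cells. Its mutant libraries lay just below the WT libraries, with a log2 fold change of -0.09 (95% interval -0.18 to -0.00, adjusted p = 0.0798 by limma). The difference of *Tet3* was called without WT replicate 2 (-0.12, adjusted p = 0.0471 by limma). It was smaller and not called without WT replicate 3 (-0.06, adjusted p = 0.168) and under quantile normalization (-0.02, adjusted p = 0.663).

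*Tet1* (chromosome 10, 62804570 to 62887469) was the scarcest member, at 136, 135 and 112 normalized reads in WT and 119, 132 and 94.8 in RORγtN275D cells. The genotypes overlapped, and its interval of -0.43 to 0.12 (log2, 95%, limma, adjusted p = 0.331) leaves room for a decrease as large as that of *Dnmt1*. Single libraries moved this value, which was -0.02 without N275D replicate 3, -0.26 without N275D replicate 2 and -0.25 without WT replicate 3, and it was called in none of the 14 alternatives. Of the summed level of the 3 TET genes per kilobase of exon, *Tet2* held 39.0% to 41.4% in WT and 48.9% to 50.1% in mutant libraries. The share of *Tet3* went from between 55.7% and 58.1% to between 48.1% and 48.5%. Set against the maintenance enzyme, the per-kilobase ratio of *Tet2* to *Dnmt1* was 0.0847 ± 0.0038 in WT and 0.152 ± 0.0025 in RORγtN275D cells. The ratios themselves depend on the exon length used, whereas their shift between genotypes, 0.84 on the log2 scale, does not.

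*Ezh2* (chromosome 6, 47530274 to 47595270), the main methyltransferase of PRC2, had 3196, 3074 and 2795 normalized reads in WT and 2428, 2306 and 2381 in RORγtN275D libraries. Even WT replicate 3, the lowest WT library, exceeded every mutant library. The decrease was 21.5%, with a log2 fold change of -0.35 (SE 0.05, adjusted p = 1.93e-05 by limma), and it was -0.40 without WT replicate 3. *Ezh1* (chromosome 11, 101191115 to 101226463), its paralog, went the other way, from 464, 440 and 490 normalized reads in WT to 540, 569 and 577 in RORγtN275D cells. Its genotypes did not overlap either, and its log2 fold change was 0.27 (SE 0.06, adjusted p = 0.00158 by limma), an increase of 20.9%. *Ezh1* thus made up 11.4% to 13.6% of the summed *Ezh1* and *Ezh2* level per kilobase of exon in WT and 16.6% to 18.1% in mutant libraries. The sum itself was 514.9 ± 28.6 in WT and 430.7 ± 7.74 in RORγtN275D cells.

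*Suz12* (chromosome 11, 79993106 to 80034123), the scaffold of the complex, had 3782, 3924 and 3292 normalized reads in WT and 3895, 3724 and 3946 in RORγtN275D cells. The genotypes overlapped and WT replicate 3 was the low library. The log2 fold change of 0.08 had a 95% interval from -0.04 to 0.19 (adjusted p = 0.251 by limma), and it came to 0.00064 without WT replicate 3. Under quantile normalization *Suz12* was called higher (0.15, adjusted p = 0.0402). The per-kilobase ratio of *Ezh2* to *Suz12* was 0.580 to 0.629 in WT and 0.447 to 0.462 in mutant libraries.

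**Figure D2:**
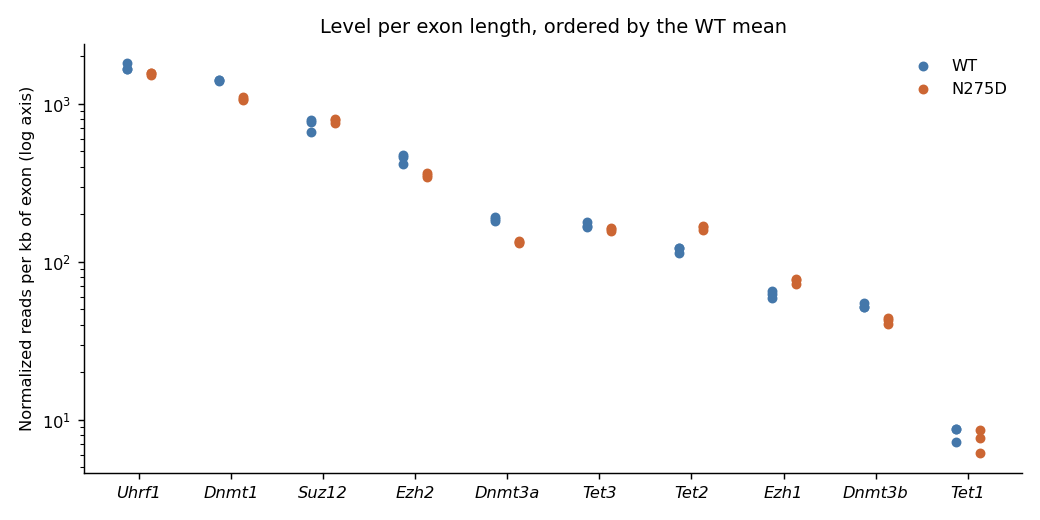
Normalized reads per kilobase of exon for each member in each library, on a log axis, ordered by the WT mean. The levels run from *Uhrf1* to *Tet1*, and *Tet2* moves from below *Dnmt3a* and *Tet3* in WT to at or above both in RORγtN275D libraries.

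Levels can be compared between genes only per length, for which the union of exons in GENCODE M21 was used. In WT cells the order per kilobase of exon was *Uhrf1* (1709), *Dnmt1* (1411), *Suz12* (741), *Ezh2* (452), *Dnmt3a* (187), *Tet3* (171), *Tet2* (120), *Ezh1* (62.5), *Dnmt3b* (53.0) and *Tet1* (8.27). No neighbours in this order overlapped over the 3 WT libraries. In RORγtN275D cells *Tet2* (164) and *Tet3* (161) overlapped, and *Dnmt3a* (134) lay below both. With the longest coding transcript as the length, *Ezh2* ranked above *Suz12* in WT, and in RORγtN275D cells *Tet2* (302) lay clear of *Tet3* (246) and *Dnmt3a* (230).

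The partners of these enzymes were read from lists made from general knowledge. Beside the counts of this and the lists below, 26.1% of all genes tested were called lower and 24.7% higher. Of 9 other PRC2 subunits tested, 6 were lower, 1 was higher and 2 were not called, and the median log2 fold change was -0.24. The further core components fell beside *Ezh2*. *Eed*, which reads the PRC2 mark, went from 2015 ± 51.0 to 1689 ± 99.8 normalized reads (log2 fold change -0.26, adjusted p = 0.000348 by limma). The histone chaperones *Rbbp4* (-0.24, adjusted p = 0.000114) and *Rbbp7* (-0.24, adjusted p = 8.04e-05) were lower by a like amount. *Epop*, an accessory subunit, fell most (-0.31, adjusted p = 0.000149). *Jarid2*, which recruits and activates the complex, was the exception, rising from 1352 ± 70.9 to 1884 ± 92.8 normalized reads, a log2 fold change of 0.48 (adjusted p = 1.10e-06 by limma). Without WT replicate 3, 2 of these subunits were called higher in place of 1.

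**Figure D3:**
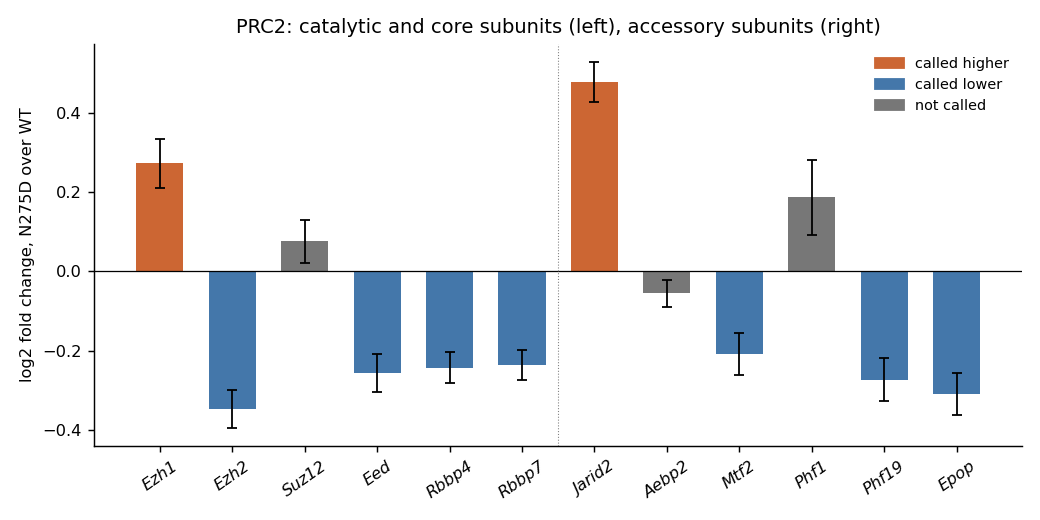
Log2 fold change (RORγtN275D over WT) of PRC2 subunits, with error bars of 1 standard error (SE) from limma (3 libraries per genotype). *Ezh1* and *Jarid2* are the called increases, and *Ezh2*, *Eed*, *Rbbp4*, *Rbbp7*, *Mtf2*, *Phf19* and *Epop* the called decreases.

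Among 16 tested partners and readers of DNA methylation, 5 were lower and 4 higher, with a median of 0.04. Of all genes tested, 26.1% were lower and 24.7% higher. The remodeler *Hells*, which opens chromatin for methylation, had 2652 ± 254 normalized reads in WT and 2006 ± 85.5 in RORγtN275D cells (log2 fold change -0.40, adjusted p = 3.48e-05 by limma). Its activator *Cdca7* was lower by a similar amount, at -0.41 (adjusted p = 7.28e-07). *Tdg*, the glycosylase that removes bases oxidized by TET enzymes, was also lower (-0.24, adjusted p = 0.000171 by limma). The DNA damage-inducible *Gadd45a* rose from 64.3 ± 8.83 to 198 ± 19.5 normalized reads, a log2 fold change of 1.61 (adjusted p = 2.45e-08 by limma). The other members called higher were *Zbtb38* (0.39), *Zbtb4* (0.33) and *Gadd45b* (0.24), named after their values were seen. *Zbtb38* and *Zbtb4* encode proteins that bind methylated DNA.

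PRC1, the second Polycomb complex, showed no common direction. Of 21 subunits tested, 7 were lower and 5 higher (26.1% and 24.7% of all genes tested), with a median of -0.08. *Pcgf5* rose most, from 1131 ± 60.4 to 1860 ± 24.1 normalized reads (log2 fold change 0.72, adjusted p = 4.98e-09 by limma), and *Cbx8* fell most (-0.31, adjusted p = 0.0405). Further PRC1 increases, named after their values were seen, included *Pcgf1* (0.28), *Rybp* (0.20) and *Phc3* (0.15). The number of lower subunits ranged from 2 to 7 over the alternatives, and was 2 without N275D replicate 3 and 4 without N275D replicate 2. The higher subunits ranged from 3 to 5, with 3 called without WT replicate 1 or without N275D replicate 3. Of 5 tested genes that oppose Polycomb silencing, the demethylase *Kdm6a* was higher (0.26, adjusted p = 6.39e-05 by limma), and its relative *Kdm6b* was lower (-0.37, adjusted p = 0.000319). *Bap1*, the catalytic subunit of the complex that removes the PRC1 mark, was lower (-0.13, adjusted p = 0.015 by limma), as was *Asxl2* (-0.19), named after its value was seen.

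Substrates for these enzymes are made by other enzymes on the lists. Of 16 genes of methyl donor supply, 8 were lower and 5 higher, with a median of -0.14. *Ahcy*, which clears the by-product that inhibits methyltransferases, went from 11760 ± 246 to 9730 ± 100 normalized reads (log2 fold change -0.27, adjusted p = 4.29e-06 by limma). *Mat2a*, which makes the methyl donor, was lower (-0.17, adjusted p = 0.00264). The cytosolic folate enzyme *Shmt1* fell most, at -0.64 (adjusted p = 3.72e-09), and the mitochondrial *Mthfd1l* rose most, at 0.34 (adjusted p = 9.96e-07). Among 17 genes that make or use 2-oxoglutarate or its reduced form, 12 were lower and 3 higher (*Got1*, *D2hgdh* and *Glud1*, the last pair named after their values were seen), with a median of -0.17. *Idh1*, the cytosolic maker of 2-oxoglutarate, went from 621 ± 29.9 to 350 ± 21.6 normalized reads, a log2 fold change of -0.83 (adjusted p = 4.48e-08 by limma). The mitochondrial *Idh2* had a log2 fold change of -0.05 (adjusted p = 0.53). *Got1* rose most, at 0.33 (adjusted p = 4.79e-06).

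**Figure D4:**
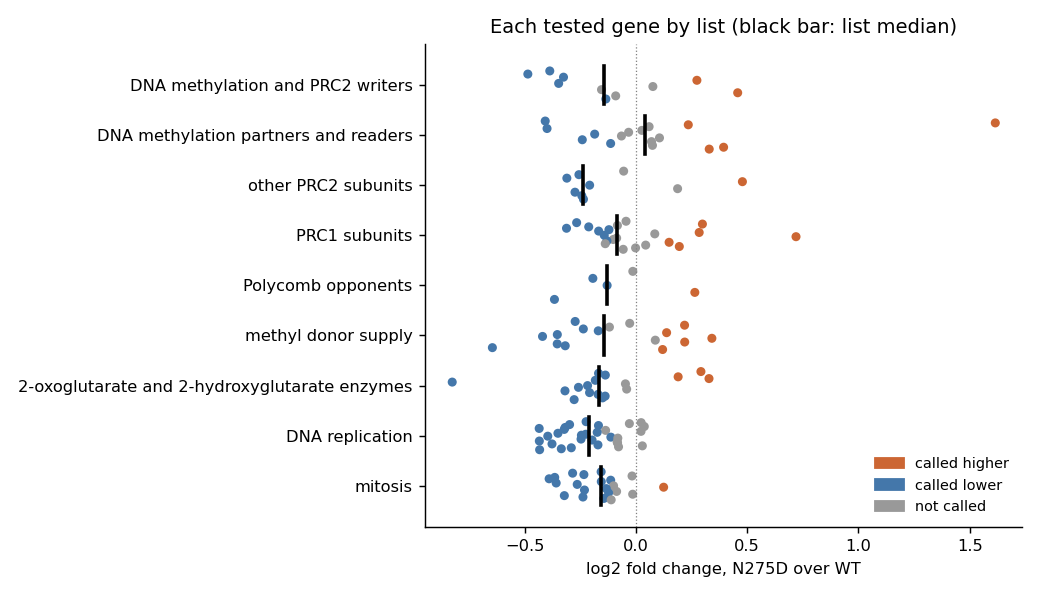
Log2 fold change (RORγtN275D over WT) of every tested gene in each list, coloured by its call, with the list median as a black bar. All list medians lie below 0 except that of the DNA methylation partners and readers (0.04). The lowest are those of the other PRC2 subunits (-0.24) and the DNA replication genes (-0.21). In both of these lists most genes are called lower, as they are among Polycomb opponents, 2-oxoglutarate enzymes and mitotic genes.

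*Dnmt1*, *Uhrf1* and *Ezh2* are transcribed mainly in cycling cells, and genes of the cell cycle moved in the same direction. Of 30 DNA replication genes tested, 20 were lower and 0 higher (also 0 higher at an unadjusted p under 0.05 in limma), with a median log2 fold change of -0.21. *Mcm2*, a subunit of the replicative helicase, had a log2 fold change of -0.35 (adjusted p = 1.61e-06 by limma). *Pcna*, the sliding clamp, had -0.25 (adjusted p = 5.17e-05), and *Gins1* fell most, at -0.43 (adjusted p = 0.00129). Of 21 mitotic genes, 15 were lower and 1 higher, with a median of -0.16. *Mki67* had -0.12 (adjusted p = 0.016 by limma) with overlapping genotypes, *Ccna2* fell most, at -0.39 (adjusted p = 4.54e-07), and the increase of *Cenpf* (0.12, adjusted p = 0.0449) was lost in 9 of the alternatives.

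Each member was also set against the mean log2 level of the 30 replication genes in its own library, as a description. On that scale *Tet2* was higher in the mutant by 0.66, *Ezh1* by 0.48, *Suz12* by 0.28 and *Tet3* by 0.11. *Dnmt3a* (-0.28), *Dnmt1* (-0.18), *Ezh2* (-0.14) and *Dnmt3b* (-0.12) stayed lower, with no overlap between genotypes for any of these 8 genes. For *Uhrf1* (0.07) and *Tet1* (0.05) the genotypes overlapped. Against the mean of the 21 mitotic genes, the genotypes overlapped for *Tet3* (0.09) as well. Against a single replication gene, *Mcm2*, the per-kilobase ratio of *Ezh2* was 0.636 ± 0.065 in WT and 0.636 ± 0.026 in RORγtN275D cells. That of *Dnmt1* to *Mcm2* was 1.98 ± 0.081 and 1.93 ± 0.045, with overlapping genotypes. *Mcm2* itself fell more (-0.35) than the median of the replication list (-0.21). Other such ratios did separate the genotypes. *Uhrf1* to *Mcm2* was 2.29 to 2.47 in WT and 2.74 to 2.83 in mutant libraries. *Dnmt1* to *Mki67* was 0.978 to 1.09 in WT and 0.842 to 0.878 in mutant libraries. Whether a difference in cycling accounts for any of the changes was not tested.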

How the data were processed

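RNA-seq was read from 3 WT and 3 RORγtN275D Th17 libraries, grouped by their labels. Per the study's methods, the authors trimmed reads, used STAR for alignment to mm10, counted per gene with featureCounts and tested with DESeq2; strand and multi-mapping settings and versions are not given in the sources used here. The deposited signal values are the authors' normalized read counts, each a whole multiple of 1 factor per library (100% of values, within 1e-06). Deposited log2 fold changes, q-values and group averages were not used. The number of unused columns of per-sample values was 0.

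The log2 of each value plus a pseudocount of 1 was used, which understates changes of low genes. All 11908 genes with a mean of at least 10 were fitted with limma (version 3.58.1, R 4.3.3) with a trended prior, without a block, and p-values were adjusted over all of them. The members and gene lists were chosen with earlier results of these data known. Genes named are the members, the called gene with the highest and lowest fold change of each list, and core partners fixed by name. Some genes that this rule names are not reported here. Antisense RNAs overlap exons of *Dnmt3a*, *Tet2*, *Ezh2* and *Suz12* in GENCODE M21; none is listed in the deposited table. The fit was tested on simulated data. Coordinates are RefSeq's, on GRCm38.p6. Alternatives were other pseudocounts (0.1 and 10), filters, scalings, no trend, a replicate block and each library left out.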

Additional observations from a re-analysis of the deposited data

How the results depend on the processing

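Under 14 alternatives each, *Dnmt1*, *Dnmt3a*, *Dnmt3b*, *Tet2*, *Ezh1* and *Ezh2* kept their direction and their call. Their log2 fold changes ranged from -0.40 to -0.32, from -0.51 to -0.42, from -0.40 to -0.29, from 0.42 to 0.52, from 0.24 to 0.31 and from -0.40 to -0.28. *Uhrf1* was called in 12 of 14 (-0.16 to -0.08), *Tet3* and *Suz12* in 1 of 14 each, and *Tet1* in 0 (adjusted p from 0.0637 to 0.907). The number of members called ranged from 6 to 8. Over all genes, the count at 2-fold was 427, against 259 with a pseudocount of 10, 703 without a filter and 162 with a mean of at least 100, where the number of genes tested differs in the last pair. TMM, here without weights, shifted the median of all genes from -0.0026 to -0.010. With a replicate block, 5727 genes and the same number of members, 7, were called. The deviations of libraries with the same number correlated at -0.05, 0.04 and -0.08. These values show no shared deviation, but with 3 libraries per genotype they cannot exclude a weak pairing. Of 504 counts over lists and alternatives, 469 stayed within 1.5 times the main count and 35 did not. Those 35 include PRC1 subunits, 4 of which were called lower without a filter, under quantile normalization or without a trend (7 in the report), and 3 called higher without a trend (5 in the report). edgeR and DESeq2 were planned on recovered reads and not run, since the values were treated as normalized. Groups of 3 libraries limit the smaller differences, such as those of *Tet1*, *Tet3* and *Suz12*.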

Other observations

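Genes that Polycomb or DNA methylation is known to hold silent were read from 3 further lists. Of 39 Hox genes, 27 are listed and only *Hoxb4* passed the level for testing, at 40.3 ± 7.18 normalized reads in WT and 48.1 ± 5.36 in RORγtN275D cells (adjusted p = 0.23 by limma). The listed Hox genes summed to between 74.65 and 85.79 normalized reads in WT libraries and between 91.84 and 108.6 in mutant libraries. *Hoxb4* and *Hoxb9* (means of 4.34 and 12.95) made up most of that difference, while *Hoxa5* (3.67 and 1.33) and *Hoxb13* (3.66 and 0.662) were lower in mutant libraries without overlap, all but *Hoxb4* at too low a level for testing and named after their values were seen. Of 18 germline genes, 9 are listed and only *Brdt*, a bromodomain protein of the testis, was tested. It went from 33.6 ± 2.34 to 60.1 ± 8.15 normalized reads, a log2 fold change of 0.81 (adjusted p = 0.00064 by limma). *Dazl* and *Ddx4* reached at most 6.91 normalized reads.

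Among 13 tested lineage regulators and Cdkn2 genes, 7 were higher and 2 lower, with a median log2 fold change of 0.23. *Eomes* (0.69), *Gata3* (0.59), *Il10* (0.71) and *Prdm1* (0.44) were higher, named after their values were seen, as was *Ifng*, which rose most (0.81). Their levels were low, with WT means of 56.4, 129.1, 46.3, 37.7 and 87.6 normalized reads in that order. With a mean of at least 100 needed for testing, 4 genes of this list were called higher in place of 7. *Tbx21*, the Th1 regulator, fell most, at -0.83 (adjusted p = 5.19e-08 by limma). The cell cycle inhibitor *Cdkn2a*, a classic PRC2 target, had 43.2 ± 15.4 normalized reads in WT and 38.2 ± 4.95 in RORγtN275D cells (adjusted p = 0.697 by limma). Without WT replicate 2, 4 of this list were called lower in place of 2. The tested gamma delta T marker, *Sox13*, was called higher (0.64, adjusted p = 0.0216 by limma). This call was lost under quantile normalization, without WT replicate 1 or 2 and without N275D replicate 1 or 3. Its level was also too low for testing where a mean of at least 100 was needed. No erythroid marker reached the level for testing (sums of 3.929 to 6.052 normalized reads in WT and 2.995 to 10.03 in mutant libraries).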
